A study of Mus musculus with 12 samples.

Results

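Naive pluripotency transcription factors are the regulators that set the undifferentiated state of mouse embryonic stem cells (mESCs) apart from later epiblast states. The group of 10 genes was chosen by symbol, with no measured value used but with earlier results of these data known. Its genes were Klf2, Klf4, Klf5, Esrrb, Tfcp2l1, Nr0b1, Tbx3, Prdm14, Zfp42 and Nr5a2. They were 10 of the 24495 genes in the count table, and each passed the filter on low counts that left 15532 genes for testing. The RNA-seq libraries came from CCE-Nanog-GFP mESCs, a line with a green fluorescent reporter of Nanog in which GFP-positive cells were sorted before the experiments. The shSC line, labelled scr or WT, carried a scrambled control shRNA. The shCTSL line, labelled CTSL KD, carried a lentiviral shRNA against Ctsl, the gene of the lysosomal protease cathepsin L, and only 1 such line was sequenced. Both lines were selected with puromycin and grown with LIF on gelatin at Day 0, and both were harvested at Day 2 and Day 4 as embryoid bodies made without LIF and treated with all-trans retinoic acid, so neither time point separates LIF withdrawal from retinoic acid or aggregation. The 6 groups of line and day held 2 libraries each, 12 in all. The comparisons ask how the naive factors behaved as the cells left the undifferentiated state and whether this differed when Ctsl was knocked down.

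As background, naive mESCs are kept by LIF, which signals through its receptor and STAT3, together with inhibition of MEK and GSK3 activity. For the cells used here, the study's methods list serum and LIF in the growth medium and name no inhibitor of MEK or GSK3. Klf4 and Tfcp2l1 are known downstream of STAT3, Tbx3 of PI3K signalling, Klf2 of MEK inhibition, and Esrrb of GSK3 inhibition through release of the repressor Tcf7l1. These factors bind each other's regulatory regions and those of the core factors Pou5f1 (Oct4), Sox2 and Nanog, and their transcripts are known to fall when the cells leave the naive state.

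The libraries held 11171111 to 27155553 counts. At Day 0, Ctsl averaged 142 ± 7.15 normalised CPM (read counts scaled to library size with TMM factors, mean ± SD of 2 libraries) in control cells and 38.4 ± 1.23 after knockdown, a log2 fold change of -1.89 (adjusted p = 0.00246). At Day 2 the Ctsl difference was -1.055 (adjusted p = 0.0342) and was called. At Day 4 it was -0.83 (adjusted p = 0.0896) and was not called. The pair of shCTSL Day 2 libraries stood apart: over all genes tested, the SD of their log2 ratio was 0.604, against 0.178 to 0.269 in the other groups. ES cell markers were abundant at Day 0, where the 8 listed genes summed to 6150 to 6261 CPM in shSC and 5735 to 6008 CPM in shCTSL.

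In mm9, the genes lay on 7 chromosomes, and the annotation gave each as protein coding. Klf2 is at chr8:74842932-74845555, Klf4 at chr4:55540013-55545347 and Klf5 at chr14:99697910-99712624. The nuclear receptor genes are Esrrb at chr12:87702067-87862578, Nr0b1 at chrX:83437103-83441286 and Nr5a2 at chr1:138740161-138857004. Tfcp2l1 (annotated as Tcfcp2l1) is at chr1:120524522-120581744, Prdm14 at chr1:13103538-13117244, Tbx3 at chr5:120120678-120134733 and Zfp42 at chr8:44380422-44392363. Exonic lengths ran from 1721 bases for Klf5 to 9269 bases for Tfcp2l1.

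RefSeq promoter windows, 250 bases before to 50 bases after a start site in GRCm38.p6, matched 7 of the 10 genes with 9 start sites, while Klf5, Tbx3 and Prdm14 had no entry. The windows were searched on both strands for the octamer ATGCAAAT bound by POU factors, the KLF core CACCC, the nuclear receptor half-site AGGTCA, its extended form AAGGTCA (which contains the half-site) and the STAT site TTCCNGGAA. The 250 bases before the start site are shown for the gene with the highest Day 0 level per length (Zfp42), the gene with the largest fall (Nr0b1) and the gene that reached its lowest level at Day 2 and held none of the searched letters (Klf4). They lie at chr8:43307010-43307259 on the minus strand, chrX:86191525-86191774 on the plus strand and chr4:55532476-55532725 on the minus strand, and capitals mark the motifs on either strand.
Zfp42: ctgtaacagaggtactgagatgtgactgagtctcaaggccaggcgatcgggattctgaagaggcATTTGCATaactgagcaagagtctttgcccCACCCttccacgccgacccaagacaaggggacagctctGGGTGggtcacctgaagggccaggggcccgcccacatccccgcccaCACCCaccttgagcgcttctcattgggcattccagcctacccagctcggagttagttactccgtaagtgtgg
Nr0b1: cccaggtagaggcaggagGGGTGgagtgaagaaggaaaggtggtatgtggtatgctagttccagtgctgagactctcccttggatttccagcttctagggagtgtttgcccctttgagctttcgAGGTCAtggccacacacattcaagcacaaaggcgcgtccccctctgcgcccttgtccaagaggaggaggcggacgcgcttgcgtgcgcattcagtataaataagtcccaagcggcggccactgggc
Klf4: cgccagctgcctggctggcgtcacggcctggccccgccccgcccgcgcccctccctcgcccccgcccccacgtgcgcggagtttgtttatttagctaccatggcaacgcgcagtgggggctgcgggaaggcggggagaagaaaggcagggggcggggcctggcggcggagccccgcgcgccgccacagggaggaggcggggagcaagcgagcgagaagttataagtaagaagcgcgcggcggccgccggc
The Zfp42 promoter held the octamer on its minus strand, 186 bases before the start site, and 3 CACCC matches. Among all 32851 promoter windows of this length, 1.74% held the octamer and 57.5% held CACCC. The Nr0b1 window held AGGTCA 126 bases before the start, a half-site found in 16.3% of all windows, and 1 of the Nr5a2 windows held it 64 bases before the start. Neither AAGGTCA, which is in 4.72% of all windows, nor TTCCNGGAA, in 1.15%, was found in any of the 9. These matches describe letters in a short window and not binding sites.

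In undifferentiated control cells all 10 factors were detected, over a wide range of levels. Per exonic length, given as RPKM (normalised CPM divided by kilobases of exon), Zfp42 was highest at 527 RPKM, followed by Klf2 at 222, Klf5 at 181, Esrrb at 152, Nr0b1 at 119, Klf4 at 97.5, Tfcp2l1 at 65.0, Tbx3 at 47.4, Nr5a2 at 28.5 and Prdm14 at 11.7. No neighbours in this order overlapped between their 2 libraries. Zfp42, also known as Rex1 and used as a reporter of the naive state, made up 36.3% of the summed RPKM of the 10 genes, and Prdm14, a repressor of FGF signalling and DNA methyltransferase genes, made up 0.808%. The shCTSL line gave the same order at Day 0 except that Klf4 (94.0 RPKM) and Nr0b1 (92.8 RPKM) exchanged places, and there Klf2 and Klf5 overlapped.

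By Day 2 of differentiation, 9 of the 10 factors had fallen in the control line, with log2 fold changes of -2.04 (Klf2) to -4.80 (Nr0b1), and the same 9 had fallen in the knockdown line, with values of -1.45 (Klf2) to -4.17 (Nr0b1). Tbx3 was the exception in both lines. Their median log2 fold change was -2.79 in shSC, against 0.02 over all genes tested, and -3.09 against 0.08 in shCTSL. A gene was called when its adjusted p was under 0.05 over all genes tested and its change was at least 1.5-fold. By this rule 25.3% of all genes tested fell by Day 2 in the control line and 24.6% in the knockdown line, the background for the 9 of 10. The libraries measure RNA from whole embryoid bodies, so fewer cells expressing a factor and less RNA per cell cannot be told apart. Summed levels of the 10 extraembryonic endoderm markers rose with these falls, from 215 to 233 CPM in shSC at Day 0 to 573 to 578 CPM at Day 2, and their part in the factors' changes was not tested.

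**Figure D1:**
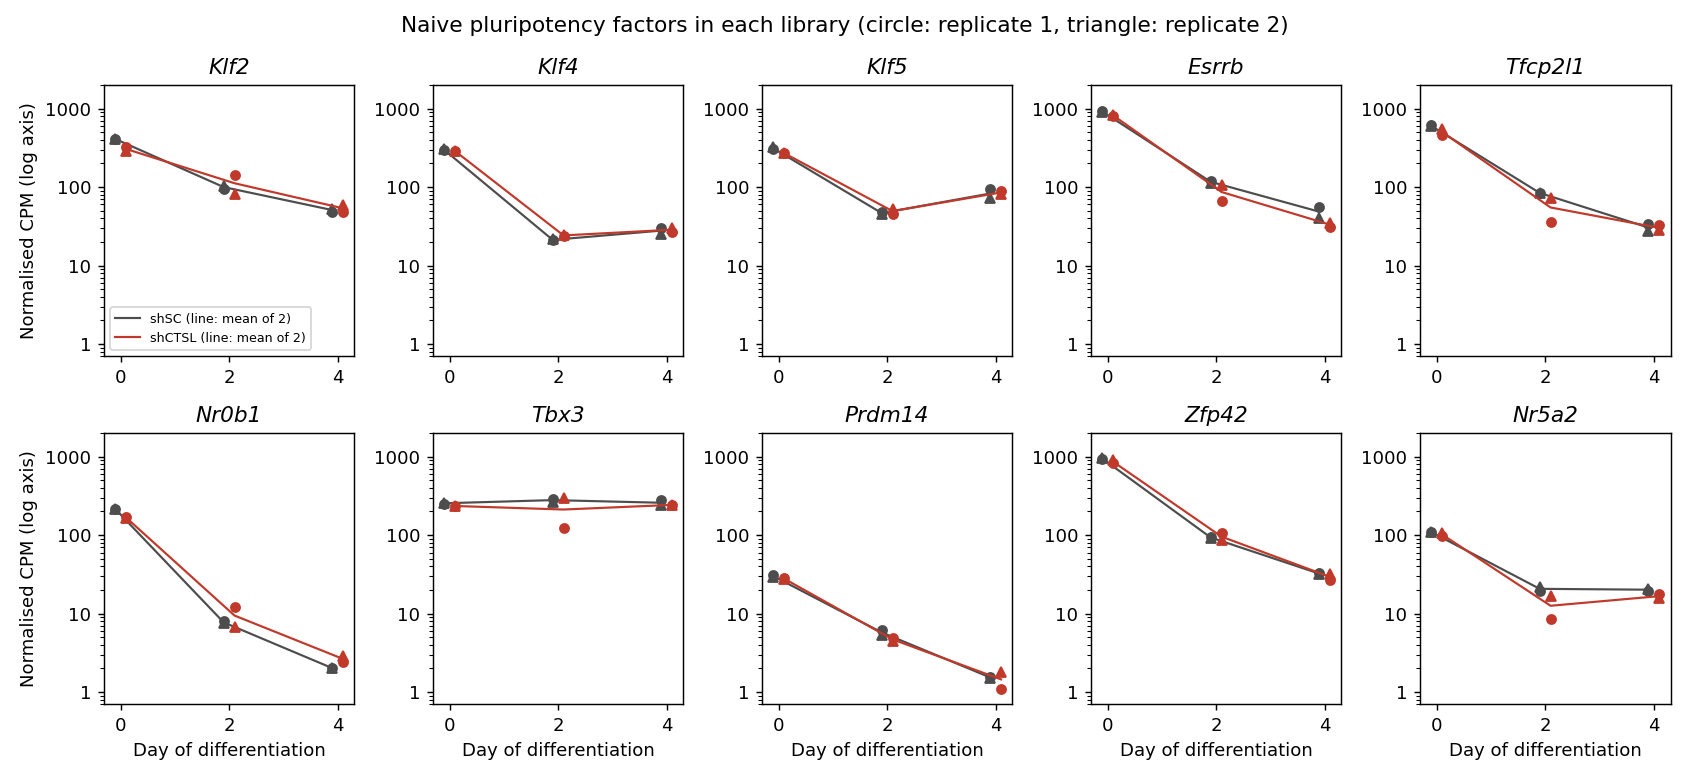
Normalised CPM (log axis) of each factor in each of the 12 libraries by day, with circles for replicate 1, triangles for replicate 2, grey for shSC, red for shCTSL and lines through the means of 2. Falls are seen in 9 panels, Tbx3 stays between 124 and 299.5 CPM, and Klf4 and Klf5 are lowest at Day 2.

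From Day 2 to Day 4 the factors parted ways. Esrrb, Klf2, Nr0b1, Prdm14, Tfcp2l1 and Zfp42 fell further in both lines, Klf5 rose in both, and Klf4, Nr5a2 and Tbx3 were not called in either. The 6 that fell compare with 12.4% of all genes called lower in shSC and 12.4% in shCTSL, and the 1 that rose with 11.4% called higher in shSC and 11% in shCTSL. Median log2 fold changes over the 10 genes were -1.12 in shSC and -0.96 in shCTSL. Against Day 0, the Day 4 libraries had 9 factors lower in each line, where 28.7% of all genes were called lower in shSC and 27.6% in shCTSL, with medians of -3.83 and -3.69.

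**Figure D2:**
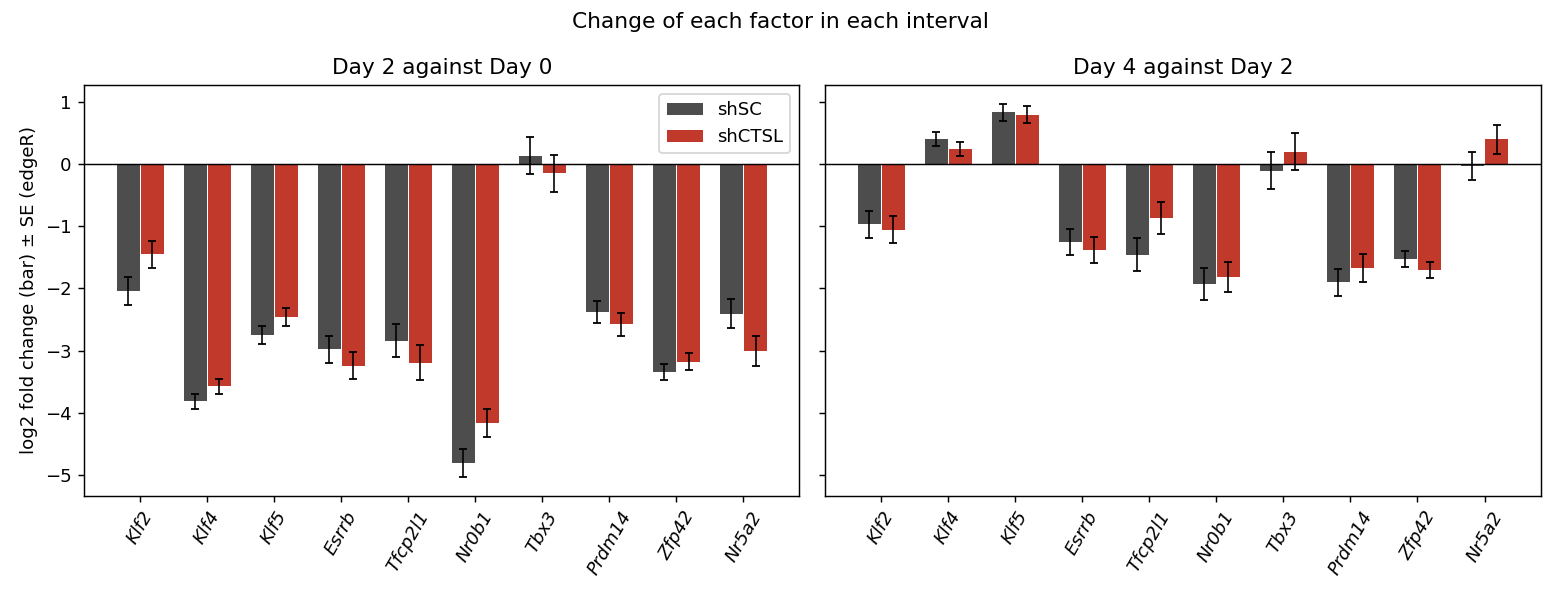
Bars give the log2 fold change of each factor from Day 0 to Day 2 (left) and Day 2 to Day 4 (right) in shSC (grey) and shCTSL (red), with the standard error of the edgeR fit over 2 libraries per group. In the left panel 9 factors are far below 0 in both lines, and in the right panel Klf5 is above 0 at 0.83 and 0.79.

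Nr0b1, the orphan nuclear receptor DAX1 that lacks a usual DNA-binding domain and acts as a corepressor, fell the most. Its level was 216 CPM in each shSC library at Day 0, 7.93 and 7.53 CPM at Day 2, and 2.03 and 2.01 CPM at Day 4. In shCTSL it was 169 and 167 CPM, then 12.1 and 6.77 CPM, then 2.43 and 2.85 CPM. The days did not overlap in either line, and at Day 4 0.935% of the mean Day 0 level remained in shSC and 1.58% in shCTSL, resting on 29 to 58 counts per library. Its log2 fold change from Day 0 to Day 4 was -6.73 ± 0.26 in the control (SE, adjusted p = 1.90e-08) and -5.98 ± 0.25 after knockdown (adjusted p = 3.27e-08).

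Zfp42, a zinc finger protein related to YY1, went from 924 and 972 CPM in shSC at Day 0 to 94.4 and 91.9 CPM at Day 2 and 32.6 and 32.0 CPM at Day 4. The shCTSL libraries held 821 and 904 CPM, then 105 and 86.0 CPM, then 27.1 and 31.5 CPM. No 2 days overlapped, and 3.41% of the Day 0 level was left in shSC at Day 4 against 3.40% in shCTSL. Prdm14, of the PR domain family and required for primordial germ cells, fell from 31.1 and 29.1 CPM to 1.55 and 1.53 CPM in shSC, and from 28.5 and 27.4 CPM to 1.08 and 1.82 CPM in shCTSL, over 20 to 37 counts per Day 4 library. From Day 0 to Day 4 Zfp42 changed by -4.87 ± 0.14 in the control (SE, adjusted p = 4.41e-09) and -4.88 ± 0.14 after knockdown (adjusted p = 5.05e-09), and Prdm14 by -4.29 ± 0.21 and -4.25 ± 0.21.

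Esrrb, an orphan nuclear receptor that can replace Nanog function in self-renewal, was the most abundant nuclear receptor of the group per length. It fell from 929.5 and 910.0 CPM to 119.8 and 113 CPM at Day 2 and 56.4 and 40.7 CPM at Day 4 in shSC. The corresponding shCTSL libraries held 812 and 828 CPM, 67.0 and 106 CPM, and 31.2 and 35.1 CPM. At Day 4 both shCTSL libraries were below both shSC libraries. Tfcp2l1, a grainyhead-family factor, fell alongside, from 609 and 596 CPM to 33.6 and 27.5 CPM in shSC and from 466.5 and 541 CPM to 32.4 and 28.0 CPM in shCTSL. Its Day 2 values were 83.8 and 84.5 CPM in shSC but 36.4 and 73.5 CPM in shCTSL. The fall of Tfcp2l1 from Day 2 to Day 4 in the knockdown line was -0.87 ± 0.26 on the log2 scale (SE, adjusted p = 0.0309). It was lost when shCTSL Day 2 replicate 2 was left out, at -0.27 (adjusted p = 0.0807), and when either shCTSL Day 4 library was left out, at -0.98 without replicate 1 (adjusted p = 0.0946) and -0.77 without replicate 2 (adjusted p = 0.157). It also missed the threshold by limma (-0.81, adjusted p = 0.11) and with only the libraries compared (-0.88, adjusted p = 0.221).

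Nr5a2, the receptor LRH-1 that binds upstream of Pou5f1, fell early and then held its level. It was at 110.0 and 109 CPM in shSC at Day 0, 19.5 and 21.8 CPM at Day 2, and 19.7 and 20.7 CPM at Day 4, so the later days overlapped. In shCTSL the values were 96.8 and 107 CPM, 8.61 and 16.6 CPM, and 17.5 and 15.8 CPM. Its change from Day 2 to Day 4 was -0.04 ± 0.23 for shSC (SE, adjusted p = 0.928) while shCTSL gave 0.39 ± 0.23 (adjusted p = 0.239). Without shCTSL Day 2 replicate 2, Nr5a2 rose by 0.95 in shCTSL (adjusted p = 3.22e-05), and without replicate 1 the value was -0.01.

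The KLF members, zinc finger factors that bind CACCC and related GC-rich letters and stand in for one another in naive cells, took different courses. Klf4 fell within the first interval from 293 and 304 CPM to 20.9 and 21.6 CPM in shSC, and from 289 and 287 CPM to 23.6 and 24.8 CPM in shCTSL. At Day 4 it stood at 30.2 and 25.6 CPM in shSC and 26.9 and 30.3 CPM in shCTSL, above both Day 2 libraries in each line. That later difference was 0.40 ± 0.11 (SE, adjusted p = 0.0237) in shSC and 0.24 ± 0.11 (adjusted p = 0.137) in shCTSL, both under the 1.5-fold limit.

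Klf5, which is also known in the trophectoderm and in epithelia, fell from 303 and 322 CPM to 48.5 and 44.7 CPM in shSC at Day 2 and then rose to 93.4 and 72.1 CPM at Day 4. In shCTSL it fell from 269 and 272 CPM to 45.8 and 52.9 CPM and rose to 90.2 and 80.5 CPM. The days did not overlap in either line. The rise was 0.83 ± 0.14 (SE, adjusted p = 0.0014) in shSC and 0.79 ± 0.14 (adjusted p = 0.00206) in shCTSL. After knockdown it missed the threshold by limma with library weights (0.79, adjusted p = 0.0941) and in a fit of only the libraries compared (0.78, adjusted p = 0.0767). The 8 trophoblast markers summed to 256 to 289 CPM at Day 2 and 536 to 611 CPM at Day 4 in shSC. Of the 7 tested, 4 were called higher and 2 lower over that interval, and their part in the rise of Klf5 was not tested. Klf2 fell at each step in both lines, from 408 and 413 CPM through 95.3 and 105 CPM to 48.8 and 53.1 CPM in shSC. In shCTSL it was at 322 and 290.1 CPM, then 142 and 81.5 CPM, then 47.7 and 59.5 CPM. Its second fall was called in shSC at -0.97 ± 0.22 (SE, adjusted p = 0.00764), but not without shSC Day 2 replicate 2 (-0.91, adjusted p = 0.0507) or without shSC Day 4 replicate 1 (-0.91, adjusted p = 0.0708). In shCTSL the second fall was -1.06 ± 0.22 (SE, adjusted p = 0.0052), and leaving out replicate 1 of shCTSL Day 4 brought it to -0.91 (adjusted p = 0.0578), which missed the threshold, as did the fit of only the libraries compared (-1.07, adjusted p = 0.118).

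Tbx3, a T-box factor known both in naive cells and in the specification of extraembryonic endoderm, was the only one of the 10 that was not called in any comparison between days in either line. It was at 252.5 and 256 CPM at Day 0, 291 and 267 CPM at Day 2, and 277 and 239.8 CPM at Day 4 in shSC. The shCTSL libraries held 237 and 233 CPM, then 124 and 299.5 CPM, then 241 and 244 CPM. Apart from the low shCTSL Day 2 replicate 1, the libraries lay within 233 to 299.5 CPM. From Day 0 to Day 4 the log2 fold change was 0.02 ± 0.30 (SE, adjusted p = 0.951) in shSC and 0.05 ± 0.30 (adjusted p = 0.898) in shCTSL. In shCTSL the change to Day 2 was -0.15 ± 0.30, but 0.39 without replicate 1 of that group (adjusted p = 0.00085, under 1.5-fold) and -0.92 without replicate 2 (adjusted p = 2.52e-07). The change from Day 2 to Day 4 moved likewise, to -0.33 without replicate 1 and 0.97 without replicate 2 (adjusted p = 4.71e-07). Extraembryonic endoderm markers rose over the same days, and their sum at Day 4 was 825 to 909 CPM in shSC and 818 to 907 CPM in shCTSL. Among them Ttr, the transthyretin gene of visceral endoderm, had no count in any Day 0 library and averaged 83.7 CPM in shSC at Day 4. The part of such cells in the level of Tbx3 was not tested.

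With these courses the make-up of the group turned over. The summed level of the 10 factors was 1433 and 1472 RPKM in shSC at Day 0, 234 and 230.3 RPKM at Day 2, and 180.0 and 158 RPKM at Day 4. In shCTSL it was 1240 and 1281 RPKM, 219 and 222 RPKM, and 162 and 167 RPKM. Tbx3 went from 3.27% of this sum to 28.5% at Day 4 in shSC and Klf5 from 12.5% to 28.4%, while Zfp42 went from 36.3% to 10.6%. At Day 4 the order in shSC was Tbx3 at 48.2 and Klf5 at 48.1 RPKM, which overlapped, then Klf2, Zfp42, Klf4, Esrrb, Nr5a2, Tfcp2l1, Nr0b1 and finally Prdm14 at 0.599 RPKM. Klf4 and Esrrb were the other pair that overlapped.

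Among the 17 genes named as KLF members in the table, Klf2, Klf5 and Klf4 were the highest per length in both lines at Day 0, and together made up 66.9% of the summed KLF level in shSC and 64.5% in shCTSL. By Day 4 this was 40.2% and 41.3%, and Klf4 ranked 9 in shSC and 10 in shCTSL. Klf9 fell from 59.7 to 11.5 RPKM in shSC (log2 fold change -2.38, adjusted p = 1.21e-07). Klf6 rose from 13.7 to 24.9 RPKM (0.86, adjusted p = 0.00052). Klf3, a repressor, was at 52.8 RPKM at Day 0 and 35.5 RPKM at Day 4 and was not called (-0.57, adjusted p = 0.183).

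**Figure D3:**
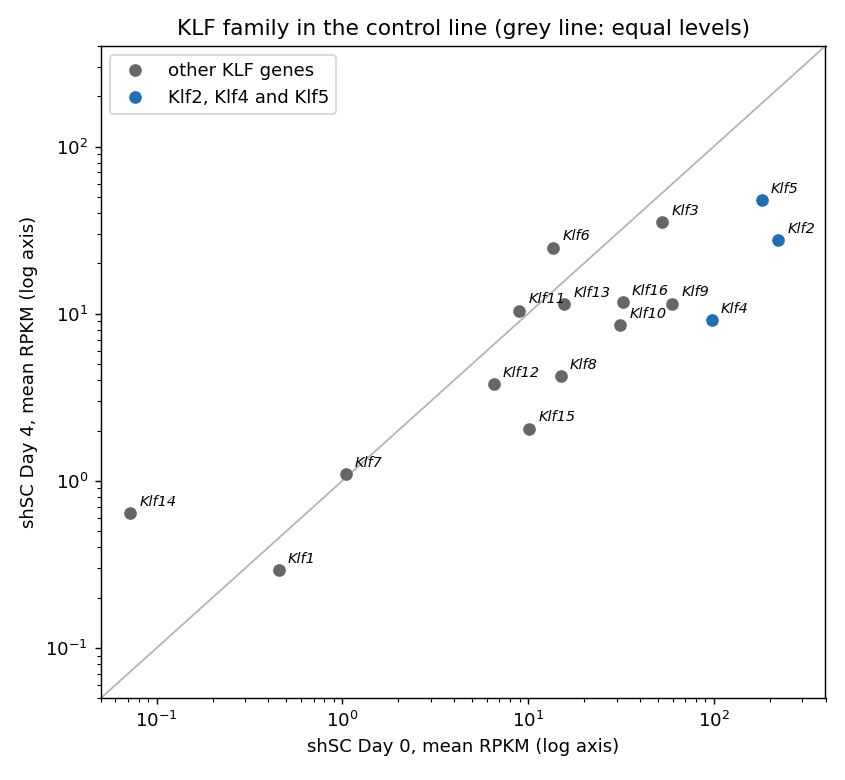
Mean RPKM of the KLF genes that passed the count filter in shSC at Day 0 (horizontal) and Day 4 (vertical), both on log axes, with Klf2, Klf4 and Klf5 in blue, the others in grey and a line where the days are equal. Klf2, Klf4 and Klf5 are the furthest to the right and all lie below the line, and Klf6 at 13.7 and 24.9 RPKM lies above it.

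Between the lines, no naive factor was called on any day. At Day 0 all 10 had negative log2 fold changes of shCTSL against shSC, from -0.42 ± 0.21 (SE) for Klf2 and -0.36 ± 0.19 for Nr0b1 to -0.05 ± 0.11 for Klf4, with a median of -0.15 against -0.02 over all genes. The adjusted p ran from 0.734 to 0.986, and 0 of the 10 had an unadjusted p under 0.05, against 7.26% of all genes. By the edgeR rule 0.0386% of all genes were called there. DESeq2 and limma with library weights also called 0 of the 10, where they called 48 and 254 of all 15532 genes. By limma, Klf2 (adjusted p = 0.0101) and Nr0b1 (adjusted p = 0.0032) missed the call only by the 1.5-fold limit. By DESeq2 their adjusted p was 0.8725 and 0.9271. In each of the 10 genes both shCTSL libraries were below both shSC libraries, a pattern seen in 28.6% of all genes tested, while 22.7% had both above. The count was 9 with median-of-ratios size factors and 8 with library totals, scalings added after seeing the data, and the genes lost were Nr5a2 in both and Prdm14 in the latter. The shared error of the fit included the spread shCTSL Day 2 libraries. Without both of them Klf2 was at -0.41 (adjusted p = 0.0193) and Nr0b1 at -0.35 (adjusted p = 0.00798), under the 1.5-fold limit, and the adjusted p of the other 8 stayed above 0.05. Over all alternatives their adjusted p ran from 0.00112 to 1 for Klf2 and from 0.00273 to 1 for Nr0b1.

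At Day 2 both shCTSL libraries were below both shSC libraries for Esrrb, Tfcp2l1, Prdm14 and Nr5a2, and above for Klf4. Of all genes tested, 22.7% were below and 22.7% above in this way. The fitted differences were -0.70 ± 0.23 (SE) for Nr5a2 (adjusted p = 0.222), -0.61 ± 0.26 for Tfcp2l1 (adjusted p = 0.246), -0.43 ± 0.20 for Esrrb (adjusted p = 0.267), -0.30 ± 0.18 for Prdm14 (adjusted p = 0.35) and 0.19 ± 0.11 for Klf4 (adjusted p = 0.336). None of the 10 was called by edgeR, where 0.0644% of all genes were, nor by DESeq2, which called 125 of 15532 genes. Limma called 0 of all genes there, so its 0 of the 10 cannot tell the members from other genes. Of the 10, 2 (Tfcp2l1 and Nr5a2) had an unadjusted p under 0.05, against 19.4% of all genes. Leaving out shCTSL Day 2 replicate 2 moved Esrrb to -0.80, Tfcp2l1 to -1.21 and Nr5a2 to -1.26. Tbx3 was also lower in shCTSL without that library, while Nr0b1 was higher. In that fit the remaining replicate 1 stands alone and is assumed to vary like the other groups, and 5012 of all genes were called.

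The ratio of the 2 shCTSL Day 2 libraries varied with transcript length over all genes, and it is given here for the members. Replicate 1 exceeded replicate 2 in the short transcripts Klf2 (log2 ratio 0.80), Nr0b1 (0.80) and Zfp42 (0.29), each under 2000 exonic bases. It was lower for Nr5a2 (-0.90), Esrrb (-0.66), Tbx3 (-1.27) and Tfcp2l1 (-1.01), each 3836 bases or longer. Klf5, the shortest of the 10, was at -0.21, Prdm14 at 0.13 and Klf4 at -0.07. Over all genes the median log2 ratio was 0.53 in transcripts of up to 2000 bases, 0.11 in those between, and -0.33 in those over 4000 bases, against -0.11 to 0.10 in the corresponding classes of the other 5 groups. Replicate 1 also held the highest share of the ribosomal RNA gene Rn45s, at 3.43% of counts. The part of these differences in the Day 2 values was not tested.

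**Figure D4:**
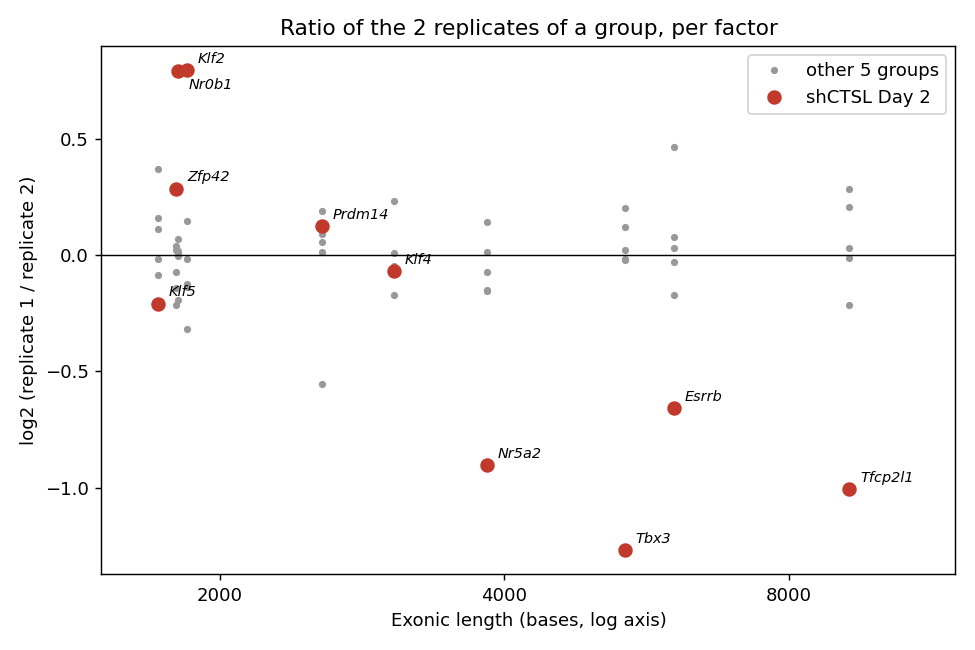
The log2 ratio of replicate 1 to replicate 2 (vertical, normalised CPM with 0.5 added) of each factor against its exonic length (bases, log axis), in red for shCTSL Day 2 and grey for the other 5 groups. The red points run from 0.80 for Klf2 to -1.27 for Tbx3, wider than the grey ones, which stay between -0.55 and 0.47.

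At Day 4 Esrrb, Zfp42 and Nr5a2 were lower in both shCTSL libraries than in both shSC libraries, and Nr0b1 was higher. The same held for 31.5% of all genes in the lower direction and 30% in the higher. Esrrb differed by -0.55 ± 0.21 (SE, adjusted p = 0.358), Nr5a2 by -0.27 ± 0.23, Zfp42 by -0.14 ± 0.13 and Nr0b1 by 0.39 ± 0.28. None of the 10 was called by edgeR, DESeq2 or limma. Over all genes, edgeR called 0.0129%, DESeq2 132 of 15532 genes and limma 723. Of the 10, 1 (Esrrb) had an unadjusted p under 0.05, against 12.2% of all genes. With library totals Zfp42 no longer separated the lines. Averaged over the days, the differences ran from -0.38 for Esrrb (adjusted p = 0.158) to 0.10 for Nr0b1, none called where 0.27% of all genes were, and Esrrb and Nr5a2 had an unadjusted p under 0.05, against 22.6% of all genes.

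**Figure D5:**
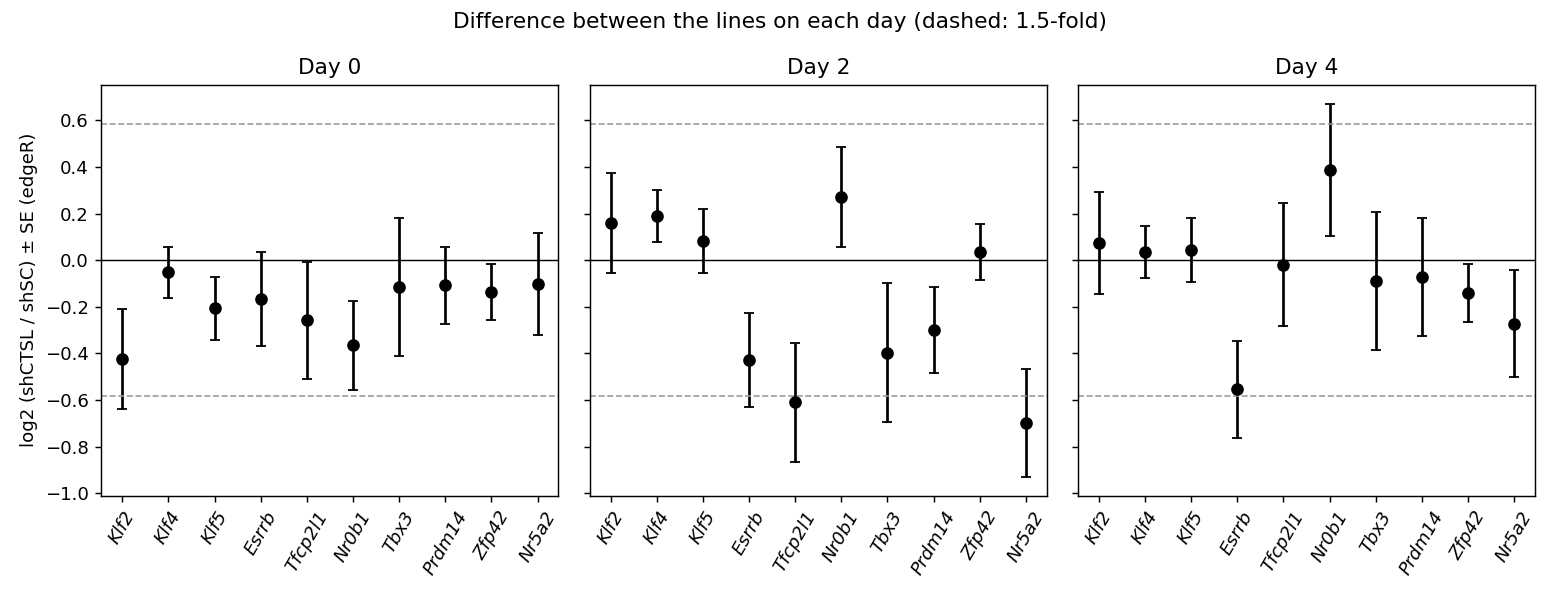
The log2 ratio of shCTSL to shSC for each factor at Day 0, Day 2 and Day 4, with the standard error of the edgeR fit, 2 libraries per group and dashed lines at 1.5-fold. All 10 points are below 0 at Day 0, from -0.42 to -0.05, and lie on both sides of 0 at Day 2 and Day 4.

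The change between days was also compared between the lines directly, by the interaction term. It called 0 of the 10 factors in each interval, as did DESeq2 and limma, and 0 had an unadjusted p under 0.05, against 11.05% of all genes from Day 0 to Day 2, 4.85% from Day 2 to Day 4 and 6.71% from Day 0 to Day 4. Over all genes, edgeR called 0% from Day 0 to Day 2, 0% from Day 2 to Day 4 and 0.00644% from Day 0 to Day 4. In the same order DESeq2 called 24, 11 and 28 of 15532 genes and limma 2, 0 and 130. For Nr0b1 the fall from Day 0 to Day 4 was smaller in shCTSL by 0.75 ± 0.34 (SE, adjusted p = 0.744). Without both shCTSL Day 2 libraries it was smaller by the same 0.75 with an adjusted p of 0.0485, and Nr0b1 was called. That fit called 258 of the 15421 genes tested. Without shCTSL Day 2 replicate 2 alone, 6 factors were called in the first interval, 3 in the second and 1 from Day 0 to Day 4. Of the 15837 genes tested in that fit, 4123, 2323 and 268 were called in the same intervals.

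Genes around the naive factors were described from fixed lists. All 4 core factors fell from Day 0 to Day 4 in both lines. Pou5f1 went from 1556 to 69.1 CPM in shSC (log2 fold change -4.49), Sox2 from 817 to 80.9 CPM (-3.34), Nanog from 545 to 48.5 CPM (-3.49) and Sall4 from 659 to 182 CPM (-1.86). Zfp42 and Nr0b1 fell by more than each of the 4 on the log2 scale in shSC, a difference given here without a test. At Day 0 Nanog overlapped between the lines, at 572 and 537 CPM in shCTSL against 546 and 543 CPM in shSC. The other core factors had both shCTSL libraries below both shSC libraries, a pattern seen in 28.6% of all genes tested. Pou5f1 was at 1495 and 1443 CPM in shCTSL against 1545 and 1567 CPM in shSC. Sox2 was at 770.8 and 713.5 against 774.7 and 859.3 CPM, and Sall4 at 568.0 and 577.9 against 676.4 and 641.0 CPM. No core factor was called between the lines at Day 0.

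Of the 6 genes of LIF and STAT3 input, 3 fell and 1 rose from Day 0 to Day 4 in shSC, and 3 fell in shCTSL. Socs3, the feedback inhibitor that STAT3 induces, fell from 165 to 10.8 CPM at Day 2 and was at 26.3 CPM at Day 4, with a log2 fold change of -2.64 to Day 4. The LIF receptor gene Lifr went from 213 to 58.5 to 83.1 CPM (-1.35) and the kinase gene Pim1 from 95.3 to 34.0 CPM (-1.48). Il6st, the shared receptor chain gp130, rose from 103 to 166 CPM in shSC (0.69, adjusted p = 0.0348) and was at 91.1 and 128 CPM in shCTSL (0.50, adjusted p = 0.111).

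Of 20 other genes tied to the naive state, 19 fell from Day 0 to Day 4 in each line, with a median log2 fold change of -3.25 in shSC and -2.79 in shCTSL. The largest falls in shSC were those of Utf1, from 625 to 6.91 CPM (-6.51), and Tcl1, from 101 to 1.43 CPM (-6.16), and the smallest called were Manba (-1.86) and Pecam1 (-0.88). At Day 0, 1 of the 20 was called lower in shCTSL: the Nodal antagonist Lefty2, named after its values were seen, with 67.6 and 66.3 CPM against 153 and 164 CPM in shSC (log2 fold change -1.24, adjusted p = 0.00396). Lefty2 was also the 1 gene called in the interaction from Day 0 to Day 4 (1.52, adjusted p = 0.0447), where 0 genes were called with the replicate block or with any 1 of the Day 0 or Day 4 libraries left out. The 10 repressors and exit factors had 7 lower and 1 higher in shSC, with Foxd3, a forkhead factor of pluripotent cells, falling from 95.2 to 0.668 CPM (-7.18) and Flcn rising from 61.5 to 107 CPM (0.80). Of 10 formative and primed genes, 4 rose and 4 fell in shSC. Sox4 rose from 37.9 to 429.9 CPM (3.50) and Fgf5 from 0.314 to 2.06 CPM (2.71), while Otx2 fell from 10.7 to 0.123 CPM (-6.24).

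The genes with the most similar courses were found by the root mean square difference over the 6 group means of log2 CPM, each relative to its own mean, among genes outside the group of 10 with assigned names. For Zfp42 the nearest was L1td1 at 0.08, a gene whose mean went from 1609 to 57.1 CPM in shSC. For Klf5 it was Mycn at 0.09, which went from 347 to 49.0 to 95.9 CPM and so also rose after Day 2. Klf2 was nearest to Smpdl3b (0.11), Prdm14 to Grik3 (0.11), Nr5a2 to Tfrc (0.15), Klf4 to Eppk1 (0.16), Esrrb to Atp2a3 (0.18), Tfcp2l1 to Eras (0.22) and Nr0b1 to Rasgrp2 (0.24), followed by Foxd3 (0.26). Within the group, Esrrb and Tfcp2l1 were each other's nearest members at 0.20. Tbx3, nearly level, was closest to Csgalnact2 at 0.03.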

How the data were processed

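Poly(A) RNA was sequenced from shSC and shCTSL cells at Day 0, Day 2 and Day 4, with 2 libraries in each of 6 groups. The study calls its replicates biological, but nothing in the sample labels says that they came from separate cultures, so the p-values measure the spread between these samples, which may be technical. Reads had been aligned to mm9 with STAR 2.3.0e, filtered with SAMtools 0.1.19 (low mapping quality, mitochondrial reads and contigs outside the chromosomes removed), and counted per RefSeq gene with featureCounts 1.6.2, as the study's methods and processing notes state. The deposited values are raw whole-number counts that the authors did not normalise. No source used here says whether the counting used strand.

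Differential expression was fitted here by edgeR 4.0.16 under R 4.3.3 (TMM factors, filterByExpr with a minimum count of 10, quasi-likelihood test, 1 mean per group over all 12 libraries, 6 residual degrees of freedom). A gene was called at a Benjamini-Hochberg adjusted p under 0.05 over all 15532 genes tested and a change of at least 1.5-fold. Comparisons were made between days within a line, between lines on each day and over the days, and as interactions. RPKM divided normalised CPM by the exonic length in GENCODE M1, the mm9 annotation, and depends on those gene models. Alternatives were DESeq2 1.42.0, limma 3.58.1 with library weights, other filters, scalings and cutoffs, length offsets, a replicate block and left-out libraries. Scripts were tested on simulated data. The members and lists were chosen with earlier results of these data known. All 10 members are reported. From each list at most 4 genes were named, those with the highest and lowest called change from Day 0 to Day 4 in shSC. A named gene of 1 list is not reported here.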

Additional observations from a re-analysis of the deposited data

Results flagged for a closer look

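For Klf4, both shCTSL libraries were below both shSC libraries at Day 0 and above them at Day 2. Of all genes tested, 28.6% were below in this way at Day 0 and 22.7% above at Day 2. The interaction of line with the change from Day 0 to Day 2 was 0.24 on the log2 scale (SE 0.16) and did not pass the edgeR test (adjusted p = 0.548). Over the alternatives its adjusted p ran from 0.256 to 0.848.

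For Nr0b1, both shCTSL libraries were below both shSC libraries at Day 0 and above them at Day 4, where the 4 libraries held 29 to 58 counts. Of all genes tested, 28.6% were below in this way at Day 0 and 30% above at Day 4. The interaction from Day 0 to Day 4 was 0.75 on the log2 scale (SE 0.34, adjusted p = 0.744 by edgeR). It passed without both shCTSL Day 2 libraries (adjusted p = 0.0485), in a fit that called 258 of the 15421 genes tested. The value was 0.753 without replicate 1 of that group and 0.755 without replicate 2. Over the alternatives the adjusted p ran from 0.0485 to 1. With 2 libraries per group, separation of all libraries in opposite directions on 2 days is a weak description.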

How the results depend on the processing

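The numbers of naive factors called between days were 9 of 10 from Day 0 to Day 2 and from Day 0 to Day 4 in both lines and 7 of 10 from Day 2 to Day 4. With the cutoff set at 1.5 on the log2 scale, the last count was 3 in shSC and 3 in shCTSL, all lower. There 716 and 585 of 15532 genes were called lower. At this cutoff the shCTSL count from Day 0 to Day 2 was 8, without Klf2. From Day 2 to Day 4 in shCTSL the count was 5 by limma, which lost Klf5 and Tfcp2l1, and 4 with only the libraries compared, which also lost Klf2. Those fits called 1255 of 15532 and 1201 of 14993 genes. Leaving out 1 library at a time gave 0 to 5 members called between the lines at Day 2, 0 to 6 in the interaction from Day 0 to Day 2, 0 to 3 in that from Day 2 to Day 4 and 0 to 1 in that from Day 0 to Day 4, each highest without shCTSL Day 2 replicate 2. Without both shCTSL Day 2 libraries the interaction from Day 0 to Day 4 called 1, Nr0b1, and 258 of all 15421 genes tested. Over all genes, the calls between the lines were 6 at Day 0 (0 to 269 over the alternatives), 10 at Day 2 (0 to 5012), 2 at Day 4 (0 to 926) and 42 over the days (3 to 1217), and those of the interactions 0 (0 to 4123), 0 (0 to 2323) and 1 (0 to 268).

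Signs changed for Tbx3 and Nr5a2 in comparisons where neither was called. With exonic length offsets, Tbx3 from Day 0 to Day 4 was -0.13 in shSC and -0.076 in shCTSL. With 1 library left out at a time, it ran from -0.084 to 0.12 there in shSC, and Nr5a2 in shSC ran from -0.12 to 0.04 from Day 2 to Day 4. In shCTSL the same runs gave -0.92 to 0.39 for Tbx3 from Day 0 to Day 2, -0.33 to 0.97 for Tbx3 from Day 2 to Day 4 and -0.014 to 0.95 for Nr5a2 in that interval. The extremes in shCTSL came without replicate 1 or replicate 2 of its Day 2 group, and without replicate 2 those values passed the threshold. Among line differences and interactions given only as ranges, 55 values changed sign, none of them called in the reported fit. The causes were not tested.

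The replicate numbers did not pair the samples: correlations of same-numbered deviations ran from -0.36 to 0.16. With the replicate block the counts were 9, 7 and 9 in each line and 0 in every comparison between lines. Between the lines that fit called few of all 15532 genes: 4 at Day 0, 0 at Day 2, 1 at Day 4, 13 over the days and 0 in each interaction. Depth limits Nr0b1 and Prdm14 at Day 4, where libraries held 20 to 58 counts.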

Other observations

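Marker lists of other cell types showed which RNAs rose as the naive factors fell. The 7 retinoic acid targets summed to 8.86 to 10.6 CPM in shSC at Day 0 and 2587 to 2591 CPM at Day 2, and all 7 were called higher at Day 2 and at Day 4 in both lines. Cyp26a1, the retinoic acid hydroxylase, averaged 1302 CPM in shSC at Day 2 and 1659 CPM in shCTSL. The 7 mesenchyme and fibroblast markers summed to 18.6 to 20.1 CPM at Day 0 and 513 to 543 CPM at Day 4 in shSC, led by Col3a1 at 333 CPM, with 6 of 7 higher and Thy1 lower. Of 7 endothelium markers, 6 were higher at Day 4 and Pecam1, which naive cells also express and which is in the list of naive genes, was lower. The 6 neural progenitor markers had 4 higher and 1 lower in shSC at Day 4, and their sum went from 231 to 245 CPM at Day 0 to 150 to 171 CPM. The 7 markers of 2-cell-like cells, a rare state known in ES cultures, summed to 0.686 to 0.805 CPM in shSC at Day 0 and 54.5 to 55.7 CPM at Day 2, and all 7 were called higher. Zscan4c, Tcstv1 and Tcstv3 belong to families of near-identical copies, so their values are uncertain. In shSC at Day 4, 8 of 8 ES cell markers were lower, 10 of 10 extraembryonic endoderm markers higher, and 6 of the 7 trophoblast markers tested higher. No cell was counted in these libraries, and the shares of cell types were not measured.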
